A study of Homo sapiens with 27 samples.

Results

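The 10 genes described here, all of the Notch pathway, were taken by their symbols from the gene counts of T47D cells, an established luminal breast cancer line. They are the ligands JAG1, JAG2 and DLL1, the receptors NOTCH1, NOTCH2 and NOTCH3, the regulators NRARP and NUMBL, and the target genes HES1 and HEY1. All 10 were among the 26485 genes of the count file, and 9 of them were among the 14789 genes with enough counts to be tested, since HEY1 was too low.

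RNA-seq had been made from 4 lines, with 3 libraries for each and 12 in all. The control line carried the empty lentiviral vector, and the Splice del, C321fs and A333fs lines each carried a Ty1-tagged truncation mutant of the transcription factor GATA3 on that vector. All 4 had been selected with puromycin, and the mutant lines still had wild-type GATA3. Each mutant is represented by 1 line, so a difference between lines can be a property of that line as well as of its mutant. By western blot the paper found a slightly lower amount of mutant protein in A333fs than in Splice del and C321fs. Amount and kind of mutant cannot be told apart here. No source used here says that the 3 libraries of a line came from separate cultures beyond calling them biological replicates, so the p-values measure the spread between these libraries, which may be technical.

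The libraries held 27872208 to 36788024 counted fragments. GATA3, the targeted gene, was at 1281 ± 50.8 CPM in control (a gene's count relative to the total of its library, after TMM scaling), and in the mutant lines at 1142 ± 12.5 CPM in C321fs, 1016 ± 11.03 CPM in A333fs and 1001 ± 45.05 CPM in Splice del (SD, n = 3). These counts do not separate the mutant transcript from the wild-type one, so they do not check the labels. Of 12 luminal epithelial markers, all 12 were at 1 CPM or more in each line, and their summed level was 20858 to 24137 CPM in the control libraries and 14531 to 17220 CPM in the mutant libraries. The 6 basal markers summed to 12.6 to 23.0 CPM, with A333fs highest, the 6 fibroblast markers to 29.7 to 65.03 CPM, with A333fs lowest, the 5 leukocyte markers to at most 5.47 CPM and the 5 endothelial markers to at most 0.383 CPM. In each line, 1 of the basal and 2 of the fibroblast markers reached 1 CPM. The part of these shifts in the results below was not tested. In bulk RNA, fewer cells of a kind and less RNA per cell cannot be told apart.

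Notch signaling passes from cell to cell. A ligand of the Jagged (JAG) or Delta-like (DLL) family on one cell binds a NOTCH receptor on its neighbor, proteases release the receptor's intracellular domain, and this domain enters the nucleus and joins the DNA-binding protein RBPJ and coactivators at target genes such as HES1, HEY1 and NRARP. In the mammary gland the pathway is known for its role in luminal cell fate, and GATA3 is a central factor of the same lineage.

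The promoters are shown for the target genes HES1 and NRARP, because RBPJ binds sites with a TGGGAA core, and because the lines differ in GATA3. Each is the RefSeq sequence (GRCh38.p14) of the 250 bases before the annotated start, written 5′ to 3′ on the gene's strand, with matches to TGGGAA in capitals. HES1 lies on the plus strand, at chr3:194135898-194136147, and NRARP on the minus strand, at chr9:137302272-137302521.
HES1: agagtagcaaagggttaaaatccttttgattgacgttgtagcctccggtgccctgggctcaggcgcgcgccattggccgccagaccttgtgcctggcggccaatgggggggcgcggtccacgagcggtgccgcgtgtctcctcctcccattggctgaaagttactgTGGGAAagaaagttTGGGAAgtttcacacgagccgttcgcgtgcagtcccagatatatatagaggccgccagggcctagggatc
NRARP: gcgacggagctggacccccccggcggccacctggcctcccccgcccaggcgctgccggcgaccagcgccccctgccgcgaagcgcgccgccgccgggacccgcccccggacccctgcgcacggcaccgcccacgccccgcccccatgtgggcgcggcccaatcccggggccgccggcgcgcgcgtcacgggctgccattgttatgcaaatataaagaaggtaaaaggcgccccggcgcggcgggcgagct
The letters TGGGAA were searched on both strands. HES1 held 2 matches, whose first bases lay 84 and 70 bases before the start, and the NRARP window held none. Across 35116 promoter windows of that length, 20.8% held the letters at least once and 2.90% at least 2 times. The GATA motif was searched, also on both strands, as AGATAA or TGATAA and with the last base changed as AGATAG or TGATAG. One of these was in 22.3% of all windows and in none of the windows of the 8 members searched, which leave out DLL1 and HEY1. HES1 was the one member of these 8 with TGGGAA. A match describes letters and not a bound site, and a window without a match says nothing of the factor.

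Levels of different genes were compared per kilobase of exon. In control T47D cells NRARP was the highest of the 10, at 34.9 ± 1.21 CPM per kilobase (SD, n = 3), followed by NOTCH3 at 29.1 ± 1.95 and HES1 at 23.5 ± 1.04. NOTCH2 at 14.8 ± 0.992 and JAG2 at 13.5 ± 0.564 came next and were not separated beyond their spread. NUMBL at 6.14 ± 0.509, NOTCH1 at 3.61 ± 0.263 and DLL1 at 1.33 ± 0.149 CPM per kilobase were lower. JAG1 at 0.103 ± 0.0127 and HEY1 at 0.0736 ± 0.0298 were at the bottom, also within each other's spread. JAG2 was thus the most abundant ligand and NOTCH3 the most abundant receptor per length. The place of NRARP depends on length: its transcript model is short, and without length scaling it was at 0.389 of NOTCH3 in control, against 1.20 per kilobase.

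**Figure D1:**
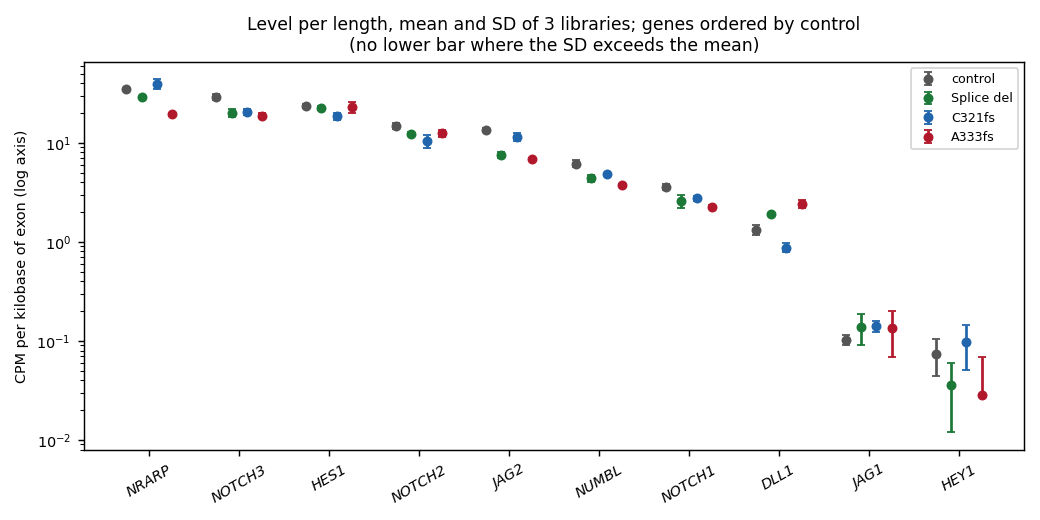
Level of the 10 Notch genes in the 4 lines, as CPM per kilobase of exon on a log axis, with the mean and SD of 3 libraries for each line and genes ordered by control. NRARP and NOTCH3 stand at the top in control, JAG1 and HEY1 lie far below the other 8, and DLL1 shows the widest spread of lines among the well-counted genes.

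In A333fs mutant cells the ligand JAG2 was 1.99-fold and the feedback regulator NRARP 1.78-fold below control, the receptors NOTCH1 and NOTCH3 and the adaptor NUMBL were 1.55-fold to 1.62-fold below, and the ligand DLL1 was 1.82-fold above. In Splice del cells JAG2 alone was called, 1.80-fold below control, and in C321fs cells DLL1 alone, 1.52-fold below, a call lost with a GC trend removed, with upper-quartile or library-size scaling and without any one of 3 libraries. DLL1 and NRARP differed most between A333fs and C321fs, in opposite directions. The 5 values below control in A333fs belong to GC-rich genes and fell under the 1.5-fold limit once a GC trend was removed, while the values of DLL1 in A333fs and JAG2 in Splice del stayed past it.

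Each mutant line was compared with control to ask how the Notch genes differ in cells that express that mutant, and the mutant lines were compared with each other to ask whether these lines differ. A gene was called where edgeR's quasi-likelihood test gave a Benjamini-Hochberg adjusted p below 0.01 over all genes tested and the fold change was above 1.5. The 3 comparisons with control share the same control libraries, so their values stand side by side and are not independent of each other. In the test of any difference among the 4 lines, 8 of the 9 tested Notch genes passed the adjusted p limit, against 56.2% of all genes, and JAG1 was the exception. Splice del mutant cells had 0 of the 9 called higher, where 6.21% of all genes were called higher, and 1 called lower, where 4.53% were. In C321fs cells 0 were called higher (4.63% of all genes) and 1 lower (2.26%). In A333fs cells 1 was called higher (5.46%) and 5 lower (6.81%). DESeq2 at the same limits called as many members higher and lower as edgeR, 0 and 1, 0 and 1, and 1 and 5. At an unadjusted p under 0.05 by edgeR, 1 member was higher in each of these 3 comparisons and 6, 7 and 6 were lower. For counts at that unadjusted limit, here and below, the share of all genes is not given, so they have no background beside them. Over the 9 members, the log2 fold change had a median of -0.27, -0.35 and -0.63 in Splice del, C321fs and A333fs, beside 0.03, 0.02 and 0.01 over all genes. With the GC trend described below removed, the members' medians were -0.29, -0.17 and -0.24, beside -0.05 over all genes in each. Libraries that lay wholly on one side of control were counted too. In Splice del, 1 member had all 3 libraries above control (31.7% of all genes) and 6 had all 3 below (31.3%). In C321fs these were 2 (27.3%) and 7 (26.7%), and in A333fs 1 (31.2%) and 6 (34.3%).

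GC content bears on these counts. The exons of 6 of the 9 tested members are 58.2% to 64.5% G or C, above the median of 49.6% for all tested genes, and the libraries differ in how their counts follow GC content. Log2 CPM changed by 0.139 ± 0.0421 for each 10 percentage points of GC in control, by -0.0792 ± 0.0479 in Splice del, by -0.0730 ± 0.0745 in C321fs and by -0.171 ± 0.0429 in A333fs (SD, n = 3). The slopes of the 3 control libraries were all higher than those of the 9 mutant libraries, and GC trend and mutant cannot be told apart in this design. Each fold change was therefore also computed after removing, library by library, the trend over GC and length of the exons. With that trend removed, Splice del cells had 1 member higher and 1 lower (4.64% and 2.42% of all genes), C321fs cells 0 and 0 (3.2% and 1.28%) and A333fs cells 1 and 0 (3.9% and 1.55%). At an unadjusted p under 0.05 in that fit, 1 was higher and 6 lower in C321fs and 6 were lower in A333fs, and these lay below control by less than 1.5-fold. The removal shifted the median of all genes to -0.05 in each comparison with control.

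The scaling between libraries matters as well. TMM factors were 0.884 to 0.943 in control and 1.01 to 1.05 in the mutant lines. Upper-quartile scaling moved the median over all genes to 0.12, 0.11 and 0.12 (log2) in Splice del, C321fs and A333fs, and library size alone moved it to 0.22, 0.19 and 0.16. Members called lower in A333fs were then 3 (JAG2, NRARP and NUMBL) and 2 (JAG2 and NRARP). DLL1 became called higher in Splice del and lost its call in C321fs under both. No called member changed direction under either scaling.

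**Figure D2:**
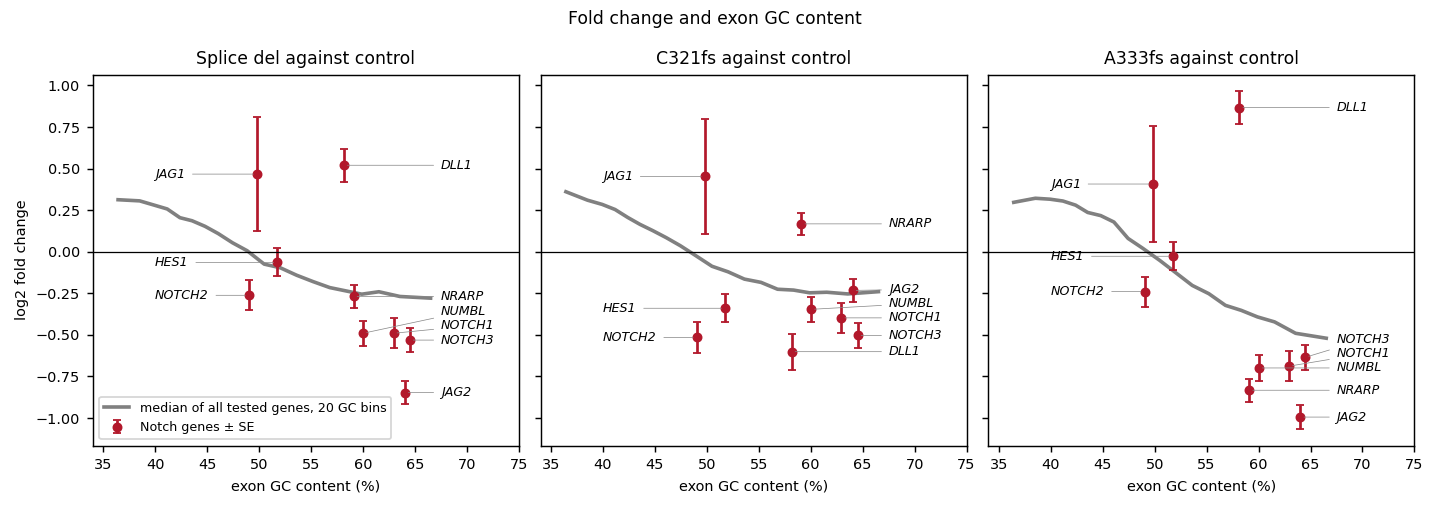
Log2 fold change against control of the 9 tested Notch genes (points, with SE) by the GC content of their exons, in percent, with 1 panel for each mutant line. The grey line gives the median of all tested genes in 20 bins of GC content and goes from 0.30 in the lowest bin to -0.52 in the highest in A333fs. JAG2, NOTCH1, NOTCH3, NRARP and NUMBL lie below zero at high GC content in A333fs, near or under the line, and DLL1 lies far above it.

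**Figure D3:**
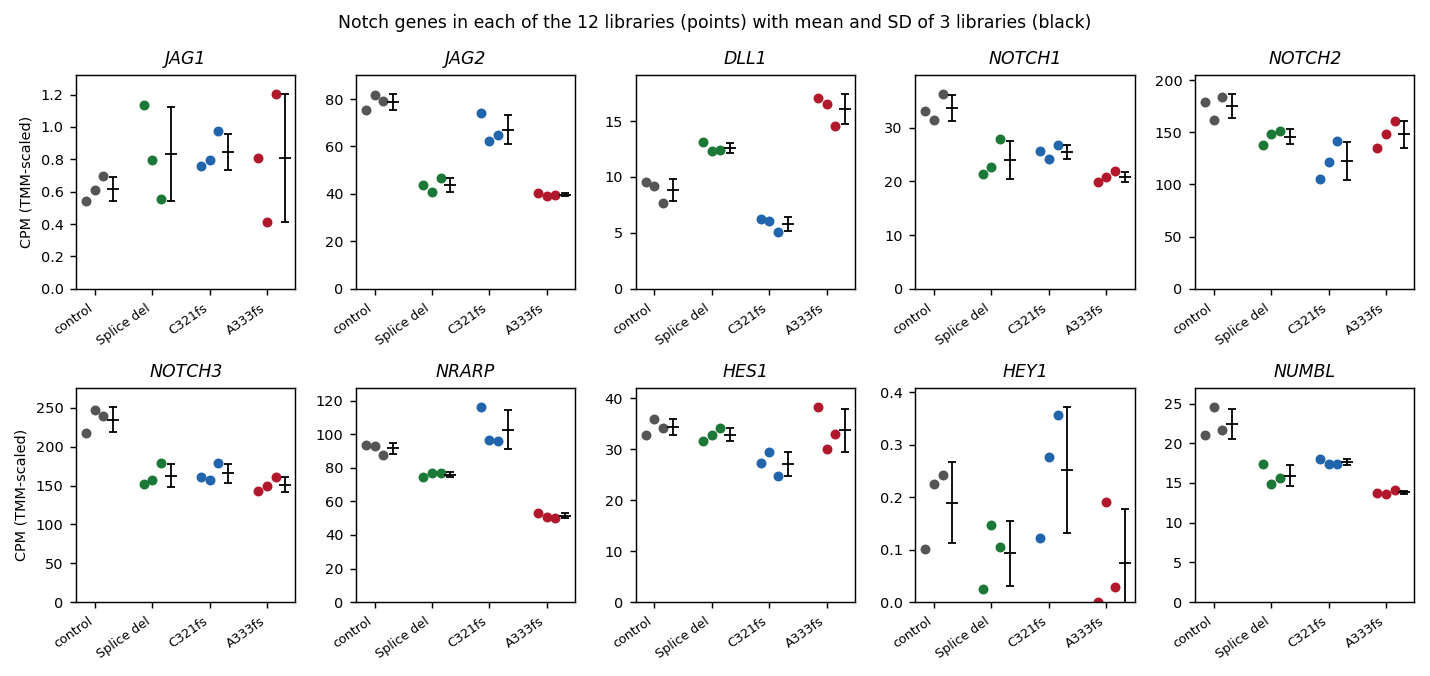
CPM of each of the 10 Notch genes in the 12 libraries (points, 3 for each line), with the mean and SD of each line in black and axes from 0. JAG2 is low in Splice del and A333fs, DLL1 is ordered C321fs, control, Splice del, A333fs with no overlap, and NRARP is lowest in A333fs.

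Of all members, the ligand JAG2 had the smallest adjusted p in the test among the 4 lines (2.6e-08, edgeR). The gene (hg38, chr14:105140981-105168824, minus strand, 26 exons, 5835 bases of exon, 64.0% GC) encodes a transmembrane ligand. Its level was 75.4, 81.9 and 79.2 CPM in the 3 control libraries, 43.9, 40.9 and 46.7 CPM in Splice del, 74.0, 62.4 and 64.7 CPM in C321fs, and 40.2, 38.9 and 39.6 CPM in A333fs. Every Splice del and A333fs library was below every control and C321fs library. JAG2 fell 1.80-fold in Splice del (log2 fold change -0.85 ± 0.07, SE, adjusted p = 1.8e-07) and 1.99-fold in A333fs (-0.99 ± 0.07, adjusted p = 2.7e-08) by edgeR's quasi-likelihood test. In C321fs the fold change was 1.17, under the limit (-0.23 ± 0.07, adjusted p = 0.00995). The 500 tested genes nearest to JAG2 in GC content had medians of -0.29, -0.26 and -0.50 (log2 fold change) in Splice del, C321fs and A333fs. With the GC and length trend removed, JAG2 remained called in Splice del at -0.66 ± 0.05. In A333fs it came to -0.56 ± 0.05, just under the fold limit, with an adjusted p of 8.7e-09 by edgeR, and in C321fs it came to -0.0015 ± 0.0441.

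Between the mutant lines JAG2 was lower in Splice del than in C321fs by 0.61 ± 0.07 on the log2 scale (SE; 1.53-fold, edgeR adjusted p = 1.5e-05) and lower in A333fs than in C321fs by 0.76 ± 0.07 (1.70-fold, 7.8e-07). The first of these moved to -0.66 with the GC trend removed and the second to -0.55, which is under the fold limit. The first also missed the limit without Splice del replicate 2 (-0.57) and without C321fs replicate 1 (-0.54), the C321fs library with the highest JAG2. Splice del and A333fs did not pass the test against each other (-0.15 ± 0.07, adjusted p = 0.143), and the sign turned to 0.10 with the trend removed.

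DLL1 (chr6:170282206-170290609, minus strand, 22 exons, 6620 bases, 58.2% GC) encodes a Delta-like ligand, and its lines were ordered unlike those of JAG2. It stood at 9.53, 9.17 and 7.67 CPM in control, at 13.1, 12.3 and 12.4 CPM in Splice del, at 6.21, 6.07 and 5.12 CPM in C321fs, and at 17.1, 16.6 and 14.5 CPM in A333fs. No library of any line overlapped with a library of another line, in the order C321fs, control, Splice del, A333fs. DLL1 rose 1.82-fold in A333fs (0.87 ± 0.10, edgeR adjusted p = 2.9e-06), although the 500 genes nearest in GC content had a median of -0.35, and it stood at 1.14 ± 0.09 with the trend removed. In Splice del it was 1.43-fold above control (0.52 ± 0.10, adjusted p = 0.00038 by edgeR), under the fold limit, and was called at 0.65 ± 0.10 with the trend removed. The genes nearest in GC content had a median of -0.23 there.

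In C321fs cells DLL1 was the one member called, 1.52-fold lower (-0.60 ± 0.11, edgeR adjusted p = 0.00032). This call was close to the fold limit. It was lost with the GC trend removed (-0.41), and when a single library was left out, whether control replicate 1 (-0.54), control replicate 2 (-0.57) or C321fs replicate 3 (-0.52). As counted, both other mutant lines differed from C321fs by more than any mutant line differed from control. DLL1 was 2.17-fold higher in Splice del than in C321fs (1.12 ± 0.10, adjusted p = 1.6e-06) and 2.77-fold higher in A333fs than in C321fs (1.47 ± 0.10, adjusted p = 3.3e-08), by edgeR. With the trend removed these were 1.06 and 1.55, both still called, and the first was below the 1.14 of A333fs against control. A333fs stood 1.27-fold above Splice del (0.35 ± 0.09, adjusted p = 0.0138 by edgeR) and did not pass. With the trend removed that value was 0.50 ± 0.09 at an adjusted p of 0.00035, still under the fold limit.

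JAG1 (chr20:10637684-10674046, minus strand, 49.8% GC), the other Jagged ligand, was at a very low level in these cells. It had 13 to 44 fragments in each library, which is 0.543 to 0.694 CPM in control, 0.557 to 1.14 in Splice del, 0.761 to 0.972 in C321fs and 0.415 to 1.20 in A333fs. The lines overlapped except that the C321fs libraries lay above those of control. Its fold changes against control were between 1.33 and 1.38 with an SE of 0.34 to 0.35 on the log2 scale, and no difference among the lines was detectable at this depth (adjusted p = 0.545 by edgeR).

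For the 3 member receptors, the mutant libraries lay below the control libraries in all 3 mutant lines. The share of all genes with that pattern in all 3 lines is not given here, and these comparisons share the control libraries. NOTCH4, the receptor among the other pathway genes, was very low and was not called. Its libraries overlapped between Splice del (mean 0.477 CPM) and control (0.446 CPM), and lay below control in C321fs (0.277 CPM) and A333fs (0.266 CPM). NOTCH3 (chr19:15159633-15200981, minus strand, 33 exons, 64.5% GC) stood at 217, 248 and 240.2 CPM in control, at 152, 157 and 179 CPM in Splice del, at 161, 157 and 180 CPM in C321fs, and at 143, 150 and 161 CPM in A333fs. All 9 mutant libraries were below all 3 control libraries, and the mutant lines overlapped with each other. NOTCH3 fell 1.55-fold in A333fs (-0.63 ± 0.07, SE, edgeR adjusted p = 4.4e-06). It was 1.45-fold below control in Splice del (adjusted p = 2.7e-05) and 1.42-fold below in C321fs (7.3e-05), both under the fold limit by edgeR's test. The Splice del value passed the limit without control replicate 1 (-0.59) and without Splice del replicate 3 (-0.61). The genes nearest in GC content had medians of -0.28, -0.26 and -0.49 in Splice del, C321fs and A333fs. With the trend removed NOTCH3 was at -0.38 ± 0.05, -0.26 ± 0.05 and -0.24 ± 0.05, so the A333fs call was lost and its value came to less than that of Splice del. The adjusted p by edgeR were then 8.6e-06, 0.00065 and 0.0013.

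NOTCH1 (chr9:136494444-136545786, minus strand, 34 exons, 62.9% GC) was at 33.1, 31.4 and 36.3 CPM in control, 21.3, 22.6 and 28.0 CPM in Splice del, 25.6, 24.1 and 26.8 CPM in C321fs, and 19.9, 20.7 and 21.8 CPM in A333fs. Again every mutant library was below every control library. NOTCH1 fell 1.61-fold in A333fs (-0.69 ± 0.09, edgeR adjusted p = 1.2e-05), while in Splice del it was 1.40-fold below control (-0.49 ± 0.09) and in C321fs 1.32-fold (-0.40 ± 0.09), both under the fold limit. Without Splice del replicate 3, which is the highest of its line, the Splice del value was -0.61 and passed. Removing the GC trend took NOTCH1 to -0.35, -0.15 and -0.34 in Splice del, C321fs and A333fs, and no line kept a call. The adjusted p by edgeR were then 0.00026, 0.081 and 0.00066.

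NOTCH2 (chr1:119911553-120069703, minus strand, 34 exons, 11825 bases, 49.0% GC) has a GC content close to that of the median gene, and its values moved little with the correction. It was at 179, 162 and 184 CPM in control, at 138, 149 and 151 CPM in Splice del, at 105, 121 and 141 CPM in C321fs and at 135, 148 and 161 CPM in A333fs. All mutant libraries lay below those of control, A333fs by a narrow margin. The lowest line was C321fs, 1.43-fold below control (-0.52 ± 0.09, edgeR adjusted p = 0.00030), under the fold limit, and -0.44 ± 0.05 with the trend removed. It passed the limit without C321fs replicate 3 (-0.63). Splice del and A333fs were at -0.26 and -0.24, with adjusted p of 0.0228 and 0.0319 by edgeR, and at -0.29 and -0.24 with the trend removed, where the adjusted p were 7.0e-05 and 0.00080. The NOTCH2 paralog NOTCH2NL was counted on its own, and fragments that map to both would have been left out of either.

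None of the receptors was called between mutant lines. At an unadjusted p under 0.05, NOTCH2 was higher in Splice del and in A333fs than in C321fs (0.25 and 0.28) and NOTCH1 was lower in A333fs than in C321fs (-0.29) and in Splice del (-0.20). Their adjusted p by edgeR were 0.0851, 0.0340, 0.0273 and 0.133.

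**Figure D4:**
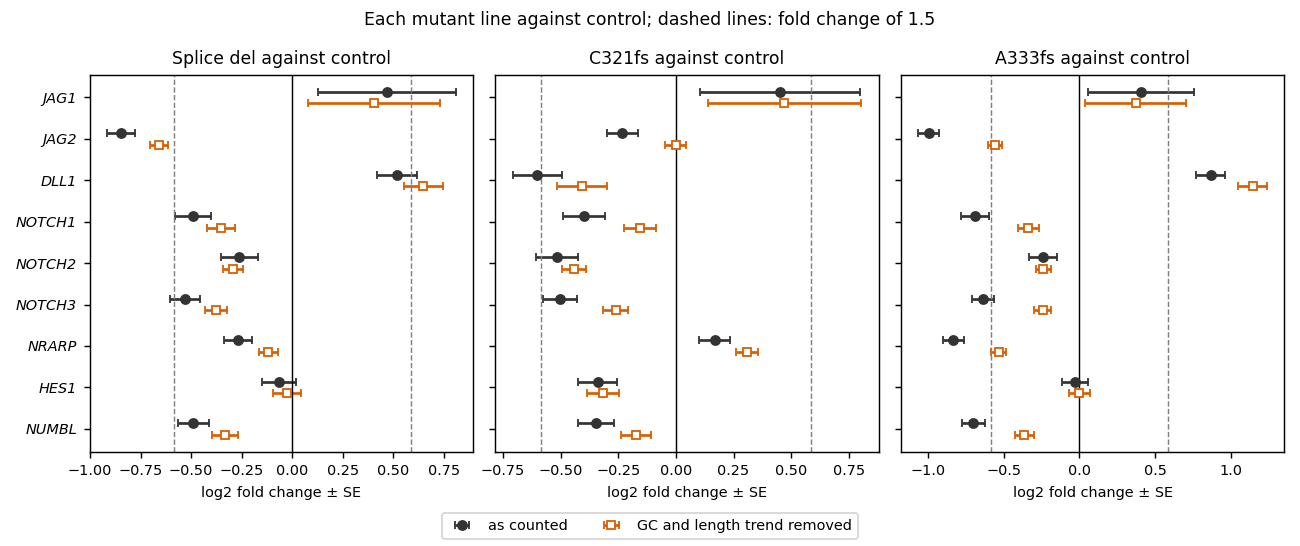
Log2 fold change with SE of the 9 tested Notch genes in each mutant line against control, as counted (filled circles) and with the GC and length trend of each library removed (open squares), with dashed lines at a fold change of 1.5. DLL1 in A333fs moves further from zero with the trend removed, from 0.87 to 1.14, JAG2 in Splice del stays past the limit, and the 5 genes called lower in A333fs all move inside it.

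The regulators followed 2 patterns. NRARP, the Notch-regulated ankyrin repeat protein, is a target gene whose product limits the signal by promoting loss of the intracellular domain. Its single exon (chr9:137299631-137302251, minus strand, 2621 bases, 59.1% GC) was counted at 93.6, 93.1 and 87.9 CPM in control, at 74.3, 76.7 and 76.9 CPM in Splice del, at 116, 96.6 and 95.7 CPM in C321fs and at 53.03, 50.9 and 50.2 CPM in A333fs. The 4 lines did not overlap, in the order A333fs, Splice del, control, C321fs, with 93.6 CPM in the highest control library and 95.7 CPM in the lowest C321fs library. NRARP fell 1.78-fold in A333fs (-0.83 ± 0.07, SE, edgeR adjusted p = 1.7e-07). The genes nearest in GC content had a median of -0.36, and with the trend removed NRARP was at -0.53 ± 0.05, under the fold limit, with an adjusted p of 4.8e-08. In Splice del it was 1.20-fold below control (-0.27 ± 0.07, adjusted p = 0.0034 by edgeR) and in C321fs 1.12-fold above (0.17 ± 0.07, adjusted p = 0.0479). The C321fs value was 0.31 ± 0.05 at an adjusted p of 2.8e-05 with the trend removed.

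Set against each other, A333fs and C321fs differed in NRARP by 2.00-fold, lower in A333fs (-1.001 ± 0.07, edgeR adjusted p = 3.1e-08), and this remained called at -0.84 ± 0.05 with the trend removed. Splice del lay 1.35-fold below C321fs (-0.44 ± 0.07, adjusted p = 0.00036), and A333fs 1.48-fold below Splice del (-0.56 ± 0.07, adjusted p = 4.0e-05), both under the fold limit by edgeR. The second passed the limit without A333fs replicate 1 (-0.59) and was at -0.41 with the trend removed.

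NUMBL (chr19:40665906-40690658, minus strand, 11 exons, 60.0% GC), the Numb-like adaptor, belongs to a family known to antagonize the receptors. It was at 21.1, 24.5 and 21.6 CPM in control, at 17.4, 14.9 and 15.6 CPM in Splice del, at 18.02, 17.4 and 17.4 CPM in C321fs and at 13.7, 13.7 and 14.1 CPM in A333fs. Each mutant library was below each control library. NUMBL fell 1.62-fold in A333fs (-0.70 ± 0.08, edgeR adjusted p = 2.5e-06), and was 1.40-fold below control in Splice del and 1.27-fold in C321fs, under the fold limit. The genes nearest in GC content had a median of -0.40 in A333fs. With the trend removed NUMBL was at -0.36 ± 0.07 there, under the fold limit, with an adjusted p of 0.00016 by edgeR and no call. Between A333fs and C321fs it differed by -0.35 ± 0.08 (adjusted p = 0.0034 by edgeR), and by -0.19 with the trend removed.

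HES1 (chr3:194136142-194138612, plus strand, 4 exons, 1461 bases, 51.7% GC), a repressor of the basic helix-loop-helix class and a standard readout of Notch signaling, was not called in any comparison. Its level was 32.8, 35.9 and 34.2 CPM in control, 31.6, 32.7 and 34.2 CPM in Splice del, 27.3, 29.3 and 24.7 CPM in C321fs and 38.2, 29.9 and 32.9 CPM in A333fs. The C321fs libraries lay below all others, and the libraries of the remaining lines overlapped. HES1 was 1.27-fold below control in C321fs (-0.34 ± 0.08, SE, edgeR adjusted p = 0.0037), and its value there was -0.32 ± 0.07 with the trend removed. Splice del and A333fs were at -0.06 ± 0.08 and -0.03 ± 0.08, and both signs turned under other scalings of the libraries. A333fs was 1.24-fold above C321fs (0.31 ± 0.08, adjusted p = 0.0122), and 0.32 ± 0.07 at an adjusted p of 0.0017 with the trend removed. The sign of this difference was opposite to that of NRARP.

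HEY1 (chromosome 8), the other repressor among the targets, had 3, 7 and 7 fragments in control, 1, 5 and 3 fragments in Splice del, 4, 8 and 11 fragments in C321fs and 0, 6 and 1 fragments in A333fs. These counts overlap across the lines and are too few for a test at this depth.

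**Figure D5:**
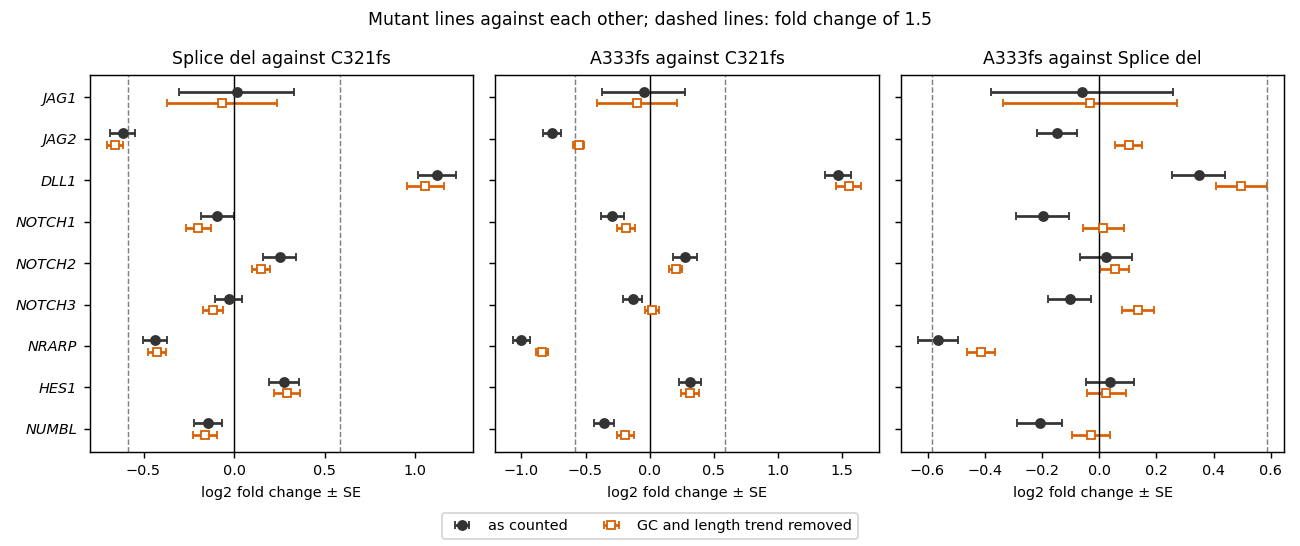
Log2 fold change with SE of the 9 tested Notch genes between mutant lines, as counted (filled circles) and after removal of the GC and length trend (open squares), with dashed lines at a fold change of 1.5. DLL1 is higher and NRARP lower in A333fs than in C321fs on both scales, at 1.47 and -1.001 as counted, and all 9 lie within the limits between A333fs and Splice del.

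In counts, the comparison of Splice del with C321fs called 1 member higher (DLL1) and 1 lower (JAG2), where 1.76% and 0.879% of all genes were called. A333fs against C321fs called 1 higher (DLL1) and 2 lower (NRARP and JAG2), against 2.47% and 3.08% of all genes. A333fs against Splice del called 0 and 0, against 1.03% and 1.97%, by edgeR, with 1 higher and 3 lower at an unadjusted p under 0.05 and 0 and 0 called by DESeq2. With the trend removed these counts were 1 and 1 (1.81% and 1.06% of all genes), 1 and 1 (2.78% and 2.5%), and 0 and 0 (1.27% and 1.35%), with 3 higher and 1 lower in the last at an unadjusted p under 0.05 by edgeR.

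The other genes of the pathway were read from a list of 74, of which 70 were in the count file and 60 were tested. Of these 60, Splice del cells had 3 called higher and 1 lower, C321fs cells 2 and 2, and A333fs cells 1 and 9, where the shares of all genes were 6.21% and 4.53%, 4.63% and 2.26%, and 5.46% and 6.81%. Their median log2 fold change was -0.08, -0.10 and -0.23, and -0.10, -0.05 and -0.06 with the trend removed. With it removed, the calls were 3 and 0, 2 and 1, and 0 and 2, beside 4.64% and 2.42%, 3.2% and 1.28%, and 3.9% and 1.55% of all genes. Of the 9 called lower in A333fs, EGFL7 and DTX1 kept the call. The list had 1 called higher and 7 lower in A333fs against C321fs (2.47% and 3.08% of all genes), and 1 and 6 with the trend removed (2.78% and 2.5%). In Splice del against C321fs it had 1 and 2 (1.76% and 0.879% of all genes). In A333fs against Splice del it had 0 and 3 (1.03% and 1.97%), where 3 were higher and 25 lower at an unadjusted p under 0.05 by edgeR and 0 and 3 were called by DESeq2.

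The proteases that cut the receptors, ADAM10, ADAM17 and the subunits of gamma-secretase among them, were all tested. None of the 9 was called by edgeR in any of the 6 comparisons, nor by DESeq2. By edgeR 0.879% to 6.81% of all genes were called in each direction, so 0 of 9 is near the share of all genes. Against control their log2 fold changes ran from -0.34 to 0.51 for Splice del, from -0.40 to 0.47 for C321fs and from -0.38 to 0.48 for A333fs. At an unadjusted p under 0.05, 4 were higher and 3 lower in Splice del, and 4 were higher and 4 lower in each of C321fs and A333fs.

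The Fringe enzymes add sugars to the receptors and so change which ligands they answer. LFNG was highest in C321fs at 35.1 ± 4.97 CPM, followed by control at 28.6 ± 0.687, Splice del at 21.99 ± 1.72 and A333fs at 16.98 ± 0.634 CPM (SD, n = 3). It was lower in A333fs than in C321fs by 1.05 on the log2 scale (edgeR adjusted p = 3.6e-07) and by 0.84 with the trend removed, and lower in Splice del than in C321fs by 0.68 on both scales. The Splice del difference missed the fold limit without C321fs replicate 1 (-0.55). Against control LFNG fell by 0.75 in A333fs, and by 0.37, under the limit, with the trend removed. RFNG was 81.6 ± 7.20 CPM in control and 50.1 ± 1.77 CPM in A333fs, a log2 change of -0.70 (edgeR adjusted p = 3.8e-06). It came to -0.25 with the trend removed and to -0.55 with library size alone, both under the limit.

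DTX4 and DTX3L belong to the Deltex family of ubiquitin ligases, which act on the receptors. DTX4 was also highest in C321fs, at 14.6 ± 1.33 CPM, with Splice del at 12.7 ± 0.229, control at 9.58 ± 0.251 and A333fs at 7.24 ± 0.556 CPM (SD, n = 3). It rose by 0.61 on the log2 scale in C321fs (edgeR adjusted p = 3.8e-05), which missed the limit without C321fs replicate 3 (0.55). It was lower in A333fs than in C321fs by 1.01 and than in Splice del by 0.81, and by 0.99 and 0.72 with the trend removed. DTX3L was at 21.8 ± 1.45 CPM in control and at 39.2 ± 0.897, 32.7 ± 5.65 and 34.9 ± 1.67 CPM in Splice del, C321fs and A333fs. It rose by 0.85 in Splice del (adjusted p = 4.8e-06) and 0.68 in A333fs (2.9e-05), with 0.58 in C321fs just under the limit, by edgeR. The A333fs value was 0.45 with the trend removed. Exons of DTX3L overlap those of PARP9, and exons of DTX4 overlap those of MPEG1. The counting left out fragments that fall in both.

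HES2, a family member of HES1 at a low level, was at 5.19 ± 0.476 CPM in C321fs and 3.70 ± 0.275 CPM in Splice del, above 2.56 ± 0.0469 CPM in A333fs and 2.34 ± 0.116 CPM in control (SD, n = 3). It rose by 0.66 in Splice del (edgeR adjusted p = 0.00027) and 1.14 in C321fs (3.2e-06), also with the trend removed (0.77 and 1.30), and was lower in A333fs than in C321fs by 1.02.

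Cofactors of the target genes were called as well. The corepressor TLE1 fell in A333fs by 0.62 on the log2 scale, with an edgeR adjusted p of 2.0e-07, and by 0.33, under the limit, with the trend removed. It missed the limit without A333fs replicate 2 (-0.57). The acetyltransferases CREBBP and KAT2A fell by 0.61 in C321fs and by 0.60 in A333fs, with edgeR adjusted p of 1.3e-05 and 1.8e-05. Both calls were lost with the trend removed (-0.44 and -0.27). CREBBP missed the limit without control replicate 3 (-0.55) or C321fs replicate 1 (-0.57), and KAT2A without control replicate 2 (-0.52) or A333fs replicate 3 (-0.55). DVL1, a Wnt pathway protein that also restrains Notch, fell by 0.65 in A333fs (1.5e-05 by edgeR) and by 0.18 with the trend removed. The calls of TLE1, CREBBP, KAT2A and DVL1 were also lost with upper-quartile scaling (-0.51, -0.52, -0.49 and -0.53) and with library size alone. KAT2A further missed the limit with no filter on low counts (-0.577) and with only the 2 lines compared (-0.582).

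The 5 tested genes whose log2 CPM followed that of JAG2 most closely over the 12 libraries were XRCC3 (Pearson r = 0.986), MISP (0.984), PTGER4 (0.980), PFKFB3 (0.979) and ROR2 (0.979). They were picked for that likeness from all 14789 genes, and the 12 points share 4 lines, so the r values are a description. PTGER4 had the widest steps, with 30.2 ± 2.05 CPM in control, 21.6 ± 1.16 CPM in C321fs, 13.6 ± 0.219 CPM in Splice del and 12.1 ± 0.0426 CPM in A333fs (SD, n = 3). PFKFB3 was the most abundant, at 684 ± 23.7, 562 ± 13.2, 420.1 ± 10.5 and 400 ± 16.9 CPM in the same order. In both, as in JAG2, Splice del and A333fs were the low lines and C321fs lay between them and control.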

How the data were processed

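RNA-seq of T47D cells with the empty vector or 1 of 3 GATA3 mutants was used, 3 libraries for each of 4 lines. ChIP-seq samples were not used here. The authors trimmed reads with Trimmomatic, aligned them to hg38 (HISAT2 in the submitters' processing notes, while the count file's header points to a directory named for STAR) and deposited counts of properly paired fragments per gene from featureCounts 1.6.4, run with no strand option and leaving out multi-mapping fragments and those in several genes. The deposited counts are whole numbers, not normalized or pooled.

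Counts were tested with edgeR 4.0.16 (R 4.3.3, limma 3.58.1): TMM factors, filterByExpr by line, and 1 quasi-likelihood fit over all 12 libraries and 14789 genes. Genes were called at an adjusted p below 0.01 (Benjamini-Hochberg) and a fold change above 1.5, the limits of the study's text. For the GC check, each library's loess trend (span 0.3) over exon GC content and length, fitted to genes outside the lists, entered as offsets. DESeq2 1.42.0, other scalings and filters, a replicate block and leaving out each library were tried. Scripts were tested on simulated counts.

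All 10 members are described, then the 10 other pathway genes with the smallest adjusted p among those called (1 of which is not reported here), the 5 genes nearest JAG2 in pattern, and GATA3. Members and lists were chosen with earlier results of these data known. AES stands in the file for TLE5. Promoter windows were searched for 8 of 10 members, without DLL1 and HEY1. The search of the members left out chromosome 8, where HEY1 lies. Replicate numbers did not pair the libraries (18 pairs of same-numbered libraries, correlation of deviations -0.123 to 0.165).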

Additional observations from a re-analysis of the deposited data

Results flagged for a closer look

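The mutant lines differed from each other in 3 Notch genes by the test of the difference itself, edgeR's quasi-likelihood test between the 2 lines at an adjusted p below 0.01 and a fold change above 1.5. DLL1 was higher by 1.12 on the log2 scale in Splice del than in C321fs and by 1.47 in A333fs than in C321fs. JAG2 was lower in Splice del than in C321fs by -0.61 and lower in A333fs than in C321fs by -0.76. NRARP was lower in A333fs than in C321fs by -1.001. With the GC and length trend removed, the JAG2 value of A333fs against C321fs was -0.55, under the fold limit, and the other 4 differences stayed past it. All 5 rest on C321fs as the second line, so they share its 3 libraries and are not independent of each other.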

How the results depend on the processing

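Members that passed the limit kept their direction under all alternatives run, and calls near the 1.5-fold limit were lost or gained. Upper-quartile scaling gave 1 member higher in Splice del, 0 lower in C321fs and 3 lower in A333fs. Library size alone gave 1, 0 and 2, and 1 lower in A333fs against Splice del. A minimum of 10 counts in every library gave 0 lower in C321fs. Removing the GC and length trend gave 1 higher in Splice del, 0 lower in C321fs, 0 lower in A333fs and 1 lower in A333fs against C321fs, and so did the replicate block with that trend removed (1, 0, 0 and 1). The replicate block alone, on numbers that do not pair the libraries, changed no call of a member. Without the minimum fold change, 1 member was higher and 5 lower in Splice del, 7 lower in C321fs, 2 lower in Splice del against C321fs, and 1 lower in A333fs against Splice del. The share of all genes at that setting is not given here. Leaving out 1 library gave 1 to 3 lower in Splice del, 0 to 1 lower in C321fs, 0 to 1 lower in Splice del against C321fs, and 0 to 1 lower in A333fs against Splice del. The libraries that decide these counts are named with the genes in the report. NRARP over NOTCH3 in control was 0.3894 without length scaling, against 1.199.

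For the other pathway genes, upper-quartile scaling gave 5 higher and 0 lower in Splice del, 4 higher and 0 lower in C321fs, and 3 higher and 5 lower in A333fs. Library size alone gave 8 and 0, 6 and 0, and 4 and 3. Removing the trend, with or without the replicate block, gave 0 lower in Splice del, 1 lower in C321fs, 0 higher and 2 lower in A333fs, and 0 higher in Splice del against C321fs. Without the minimum fold change, 12 were higher and 18 lower in Splice del, 10 and 17 in C321fs, 9 and 26 in A333fs, 2 and 14 in A333fs against C321fs, and 13 lower in A333fs against Splice del. For these counts too, the share of all genes is not given. Leaving out 1 library gave 0 to 1 lower in Splice del, 1 to 4 higher and 0 to 3 lower in C321fs, and 0 to 1 higher and 1 to 2 lower in Splice del against C321fs.

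Of all calls over the genome, the share that is higher was 57.8%, 67.2% and 44.5% in Splice del, C321fs and A333fs with TMM, 79.1%, 86.3% and 73.7% with upper-quartile scaling, 92.2%, 93.2% and 80.2% with library size alone, and 65.7%, 71.3% and 71.6% with the trend removed.

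The differences that turned sign had not been called. Upper-quartile scaling put HES1 at 0.0263 in Splice del and 0.0864 in A333fs, and library size alone at 0.123 and 0.121. Library size alone also put A333fs against Splice del at -0.00197 for HES1 and -0.0171 for NOTCH2. Removing the trend, without and with the replicate block, put HES1 in A333fs at 0.000357 and 0.00041, JAG1 in Splice del against C321fs at -0.0656 and -0.0583 (-0.00727 in DESeq2), NOTCH3 in A333fs against C321fs at 0.0198 and 0.0191, and A333fs against Splice del at 0.103 and 0.104 for JAG2, 0.0147 and 0.0138 for NOTCH1 and 0.135 and 0.134 for NOTCH3. Leaving out 1 library gave HES1 a range of -0.127 to 0.0866 in A333fs and of -0.0619 to 0.146 in A333fs against Splice del. The range for JAG1 was -0.0129 to 0.752 in A333fs, -0.297 to 0.209 in Splice del against C321fs, -0.464 to 0.297 in A333fs against C321fs and -0.479 to 0.281 in A333fs against Splice del. For NOTCH2 in A333fs against Splice del it was -0.041 to 0.0831, and for NOTCH3 in Splice del against C321fs -0.102 to 0.0325. Depth limits HEY1 and JAG1, as their counts of at most 11 and 44 fragments show. Except for the steps that the scaling and the trend build in, the cause of these changes was not tested.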

Other observations

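A further 8 pathway genes were called in at least 1 comparison and fell outside the 10 with the smallest adjusted p. They are named here after their values were seen. EGFL7, a secreted protein that binds Notch receptors, was at 4.47 ± 0.798 CPM in control and 2.07 ± 0.531 CPM in A333fs (SD, n = 3). It was lower by -1.12 on the log2 scale (edgeR adjusted p = 7.3e-05), and -0.60 once the GC and length trend was taken out. EGFL7 was also called lower in A333fs than in C321fs, by -1.003 (-0.67 without the trend), and lower in Splice del than in control, by -0.61, a call lost at -0.39 without the trend. DTX1, a Deltex ligase and known Notch target, was at 1.20 ± 0.267 CPM in control, 1.47 ± 0.335 CPM in C321fs and 0.444 ± 0.0559 CPM in A333fs. It was lower in A333fs than in control by -1.43 and than in C321fs by -1.70, and by -1.005 and -1.47 with the trend removed. DTX1 was at a low level in every line. NRARP, LFNG, DTX4 and HES2 were also lower in A333fs than in C321fs with and without the trend. Other pathway genes went the other way in that comparison, with DLL1 higher by 1.47, MAML2 by 0.73 and HES1, under the fold limit, by 0.31.

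MAML2, a coactivator of the nuclear complex, was at 4.02 ± 0.690 CPM in C321fs and 6.67 ± 0.312 CPM in A333fs, which was higher by 0.73 (edgeR adjusted p = 0.00034) and by 0.65 with the trend removed. MFNG, the third Fringe enzyme, rose from 0.973 ± 0.172 CPM in control to 2.04 ± 0.0694 CPM in Splice del, by 1.07 on the log2 scale (adjusted p = 0.00085, edgeR) and by 1.24 with the trend removed. HEY2, a relative of HEY1, was at 12.4 ± 1.29 CPM in C321fs, 11.04 ± 1.59 CPM in control, 9.001 ± 0.495 CPM in A333fs and 8.09 ± 0.580 CPM in Splice del. It was lower in Splice del than in C321fs by -0.61 and by -0.62 with the trend removed. TLE6 and HES6 were lower in A333fs than in C321fs by -0.77 and -0.61, and by -0.60 and -0.35 with the trend removed. HES4 was lower in A333fs than in control by -0.72, and by -0.17 with the trend removed. Further calls were MFNG and TLE6 lower in A333fs than in Splice del, by -1.03 and -0.68 (-0.88 and -0.54 with the trend removed), and MAML2 higher in Splice del than in C321fs, by 0.63 (0.55 with the trend removed). The TLE6 and MAML2 values with the trend removed were under the fold limit.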
